A study of Mus musculus with 10 samples.

Results

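Penk and Nrn1 are 2 of the 19938 genes measured on arrays of mouse regulatory T cells (Tregs), and both are better known from neurons. Both were chosen by their differences between Treg subsets on these same arrays, where they are among the largest. Their levels and their differences between subsets are therefore given as a description, with no test. Each gene was read from the probe sets whose gene symbol equals its name, and each had 1 such probe set: 10511363 for Penk (Entrez gene 18619) and 10408689 for Nrn1 (Entrez gene 68404).

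Penk encodes proenkephalin, a secreted precursor that proteases cut into Met-enkephalin, Leu-enkephalin and related peptides. Enkephalins are ligands of the delta and mu opioid receptors, which couple to inhibitory G proteins and dampen pain signalling, and Penk transcript is also made by activated T helper cells and by Tregs. Nrn1 encodes neuritin, also called CPG15, a small protein held on the cell surface by a lipid anchor and also released, which was found as a gene induced by neuronal activity, and which promotes neurite growth and synapse maturation. In T cells, neuritin has been described in follicular regulatory T cells and in anergic T cells.

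All groups were CD4+ spleen cells sorted by an RFP reporter of Foxp3, the transcription factor that defines Tregs, from C57BL/6 mice labelled female and 9 to 14 weeks old. FR3 Klrg1+ cells (CD62Llo CD69+ Klrg1+) had 1 array, FR3 Klrg1- cells (CD62Llo CD69+ Klrg1-) had 4, FR2 cells (CD62Llo CD69- Klrg1-) had 2 and FR1 cells (CD62Lhi CD69- Klrg1-) had 2. CD69 is an early activation marker and Klrg1 an inhibitory receptor of terminally differentiated lymphocytes. Another array was titled FR3 but carried the marker text of FR1, so it was in no group. Values are log2 intensities made by RMA, on which a difference of 1 is a doubling. The labels call the arrays of a group biological replicates, and the number of mice behind each sample is not given in the labels.

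The 9 grouped arrays fell into 2 sets. The second set held FR3 Klrg1+ and replicates 3 and 4 of FR3 Klrg1-, and the first set held replicates 1 and 2 of FR3 Klrg1-, FR2 and FR1. Over all probe sets, arrays correlated at 0.972 to 0.982 within the second set, at 0.981 to 0.992 within the first and at only 0.901 to 0.921 between them. Eif2s3y, a gene of the Y chromosome, had log2 levels of 8.09 to 8.47 on the 3 arrays of the second set and 3.08 to 3.33 on the 6 arrays of the first, although every array is labelled female. Xist, the transcript of the silenced X chromosome, had log2 levels of 10.26 to 10.61 in the second set and 10.57 to 11.40 in the first. Penk and Nrn1 were therefore compared within a set: FR3 Klrg1+ with replicates 3 and 4 of FR3 Klrg1-, and FR3 Klrg1- replicates 1 and 2 with FR2 and with FR1.

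The sort could be checked on the transcripts of its markers. Klrg1 transcript had a log2 level of 12.33 on the FR3 Klrg1+ array and of 6.54 to 7.47 on the 4 FR3 Klrg1- arrays. It was not even among the groups sorted as Klrg1-, with 6.58 and 6.44 in FR2 cells and 5.43 and 5.78 in FR1 cells. Its log2 difference from FR1 was 1.27 in FR3 Klrg1- (limma, adjusted p = 0.000395, and 0.0231 without the array set in the fit). In FR2 it was 0.90 (limma, adjusted p = 0.014, and 0.645 without the array set). Foxp3 had log2 levels of 9.63 to 9.95 in the second set and 10.65 to 10.93 in the first, so the labelled cell type carried its defining transcript on every array. Cd69 transcript did not follow the CD69 gate. It averaged 12.09 in replicates 1 and 2 of FR3 Klrg1- and 12.26 in FR1 cells. The log2 difference was -0.17 ± 0.17 (fit SE, limma, adjusted p = 0.723, n = 2 each). In the second set, where every array was sorted as CD69+, Cd69 was lower. It was at 10.24 and 9.73 in replicates 3 and 4 of FR3 Klrg1- and at 9.86 on the FR3 Klrg1+ array. On the first-set arrays it ran from 11.86 to 12.41, FR2 and FR1 cells sorted as CD69- included.

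Penk was the gene with the largest log2 difference of all 19938 genes between FR3 Klrg1- cells and both other Klrg1- subsets, and it was higher still in FR3 Klrg1+ cells. In the first set its log2 level was 11.40 and 11.33 in FR3 Klrg1- cells, 8.0 and 7.66 in FR2 cells and 7.19 and 7.32 in FR1 cells. The 3 subsets did not overlap: FR3 Klrg1- stood far above the others, and both FR2 arrays lay just above both FR1 arrays. The mean log2 level was 11.37 ± 0.05 in FR3 Klrg1- cells, 7.83 ± 0.24 in FR2 cells and 7.25 ± 0.09 in FR1 cells (SD, n = 2 each).

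The log2 difference of Penk was 4.11 for FR3 Klrg1- minus FR1, a 17.3-fold difference in intensity, with a fit SE of 0.14. Against FR2 it was 3.53, or 11.6-fold, with the same SE. Both comparisons use the same 2 FR3 Klrg1- arrays. FR2 minus FR1 gave 0.58, or 1.49-fold, which was 14.1% of the FR3 Klrg1- minus FR1 difference and ranked 358th among all genes from the highest. The arrays of the first-named group lay wholly above those of the second for 25.3% of all genes in FR3 Klrg1- against FR1. The share was 24.7% in FR3 Klrg1- against FR2 and 25.4% in FR2 against FR1, so the separation of Penk in FR2 is common on 2 arrays a group. In these bulk samples, a larger share of cells with the transcript and more transcript per cell cannot be told apart.

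In the second set, Penk had a log2 level of 12.44 on the FR3 Klrg1+ array, against 11.51 and 11.47 on the FR3 Klrg1- arrays. The Klrg1+ array lay above both, as it did for 36.5% of all genes. The difference from the Klrg1- mean of 11.49 ± 0.03 (SD, n = 2) was 0.95, or 1.93-fold, with a fit SE of 0.17 that takes the spread of the single Klrg1+ array from the other groups. It ranked 107th of 19938 genes. With 1 FR3 Klrg1+ sample there is no replicate check of this difference.

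**Figure D1:**
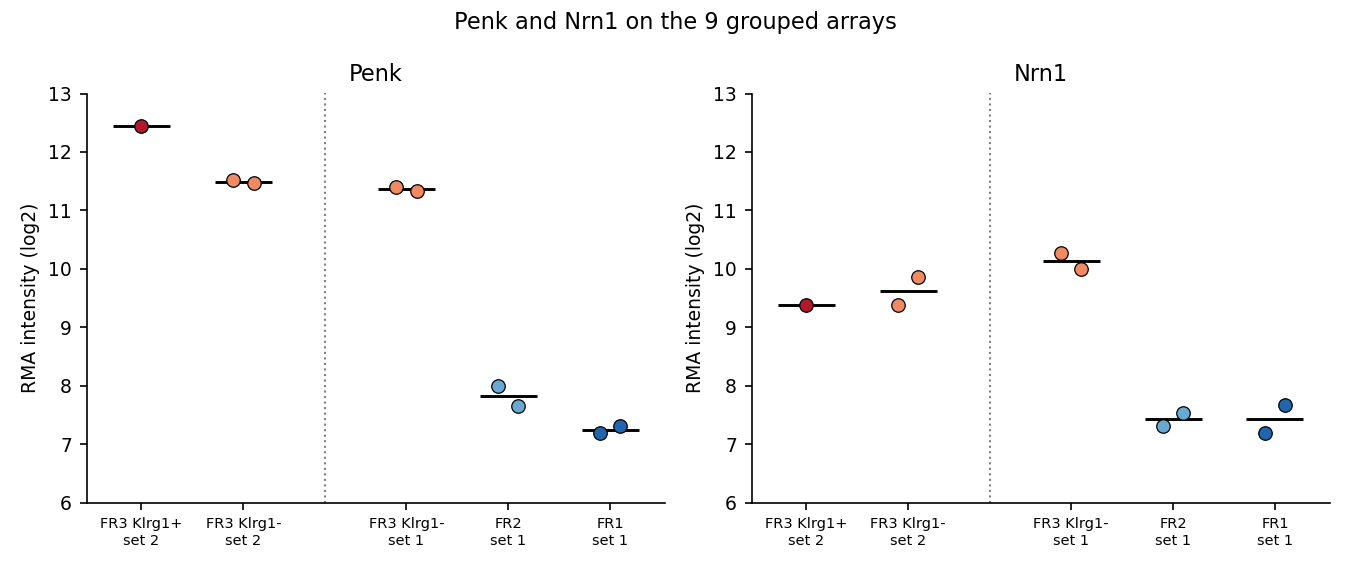
Log2 intensity of Penk and of Nrn1 (y axis) on each grouped array, by subset and array set (x axis); points are arrays and short bars are group means. Penk lies between 11.33 and 12.44 on the FR3 arrays and between 7.19 and 8.0 on the FR2 and FR1 arrays, and Nrn1 lies between 9.38 and 10.27 on the FR3 arrays and between 7.19 and 7.68 on the FR2 and FR1 arrays.

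Nrn1 shared the high level in FR3 Klrg1- cells but neither the small difference of Penk between FR2 and FR1 nor its higher level in FR3 Klrg1+ cells. In the first set its log2 level was 10.27 and 10.00 in FR3 Klrg1- cells, 7.31 and 7.54 in FR2 cells and 7.19 and 7.68 in FR1 cells. Both FR3 Klrg1- arrays stood above all others, while the FR2 arrays lay inside the range of the FR1 arrays. The mean log2 level was 10.13 ± 0.19 in FR3 Klrg1- cells, 7.43 ± 0.17 in FR2 cells and 7.43 ± 0.35 in FR1 cells (SD, n = 2 each).

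The log2 difference of Nrn1 was 2.70 for FR3 Klrg1- minus FR1, or 6.50-fold, with a fit SE of 0.19, and 14 genes had a larger one. For FR3 Klrg1- minus FR2 it was 2.71, or 6.54-fold, with the same SE, and only Penk had a larger one. FR2 minus FR1 was -0.01 with a fit SE of 0.19. On this scale FR2 cells had covered none of the distance between FR1 and FR3 Klrg1- cells for Nrn1 (-0.351%), against 14.1% for Penk.

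In the second set, Nrn1 had a log2 level of 9.39 on the FR3 Klrg1+ array, against 9.38 and 9.86 on the FR3 Klrg1- arrays. The Klrg1+ array lay inside the Klrg1- range. The difference from the Klrg1- mean of 9.62 ± 0.34 (SD, n = 2) was -0.23, or 0.852-fold, with a fit SE of 0.23. That difference is smaller than the SD of the Klrg1- pair. The order of the subsets by Penk level was thus FR3 Klrg1+, FR3 Klrg1-, FR2 and FR1. By Nrn1 level, FR3 Klrg1+ and FR3 Klrg1- did not differ beyond their spread, nor did FR2 and FR1.

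**Figure D2:**
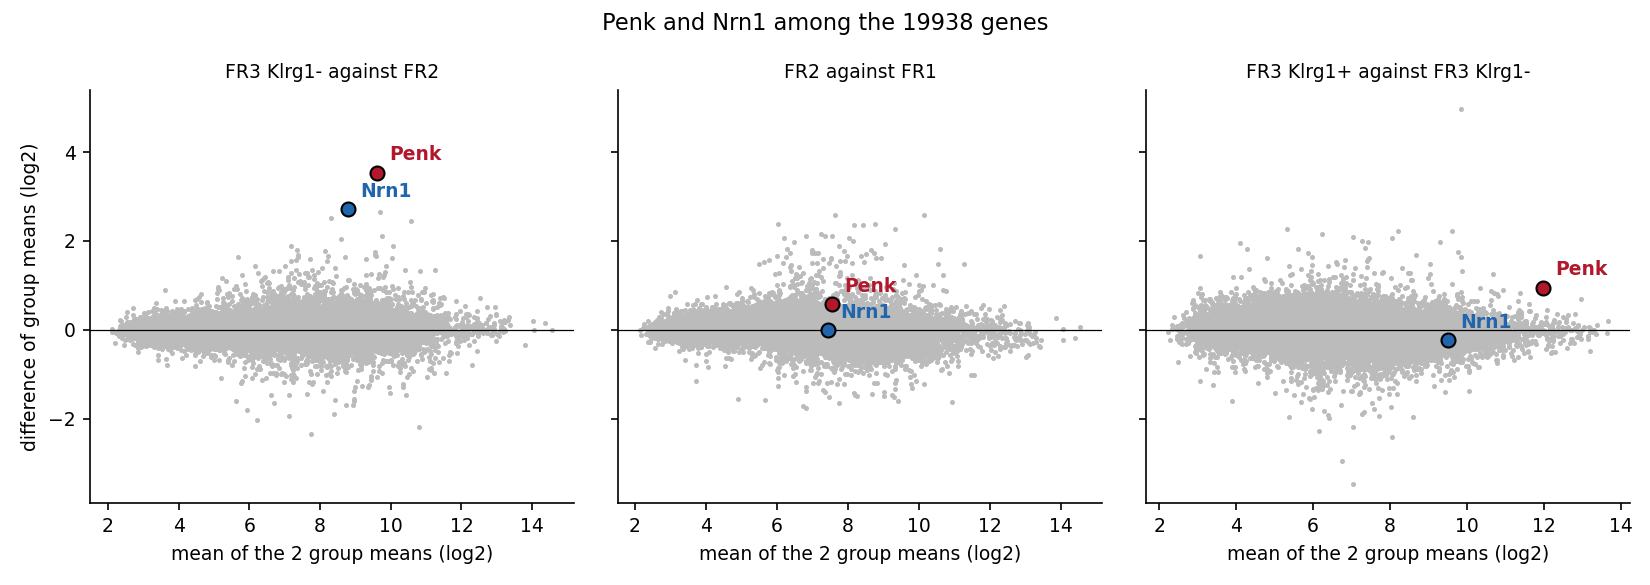
Log2 difference (y axis) against mean log2 intensity (x axis) of all 19938 genes as grey points, with Penk and Nrn1 marked, for FR3 Klrg1- minus FR2, FR2 minus FR1 and FR3 Klrg1+ minus FR3 Klrg1-. Penk (3.53) and Nrn1 (2.71) are the uppermost points in the first panel, and in the other panels Nrn1 lies near 0 (-0.01 and -0.23) and Penk at 0.58 and 0.95.

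The second set held no FR2 or FR1 array, so a high level of FR3 Klrg1- cells could not be read within it. Across sets, which differed in many genes, both genes stood higher in replicates 3 and 4 of FR3 Klrg1- than on any FR2 or FR1 array. Penk averaged 11.49 in replicates 3 and 4 and 11.37 in replicates 1 and 2, a difference of 0.13, and 26.4% of genes differed by less. Nrn1 averaged 9.62 in replicates 3 and 4 and 10.13 in replicates 1 and 2, a difference of -0.51, and 71.4% of genes differed by less. The median size of this difference over all genes was 0.28. Over all 4 FR3 Klrg1- arrays, Penk averaged 11.43 ± 0.08 and Nrn1 9.88 ± 0.37 (SD, n = 4).

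Many genes of acute stimulation differed more between the sets than Penk and Nrn1 did, though not all. Of 30 genes induced by activity in neurons, 25 were lower in replicates 3 and 4 of FR3 Klrg1- than in replicates 1 and 2, with a median log2 difference of -1.06, against 0.02 over all genes. Fos, an immediate-early transcription factor, averaged 8.01 in replicates 3 and 4 and 11.19 in replicates 1 and 2. Nr4a1, an orphan nuclear receptor induced by the T cell receptor (TCR), averaged 7.80 in replicates 3 and 4 and 11.99 in replicates 1 and 2. For Penk and Nrn1 the same difference was 0.13 and -0.51, beside -3.18 for Fos and -4.19 for Nr4a1. Egr2 ran the other way, with a difference of 1.71, and Npas4 (-0.27), Homer1 (-0.34) and Bdnf (-0.17) differed less than Nrn1. Bdnf was below the array median on 9 of 9 arrays, so little can be read from its small difference. What separates the sets was not tested.

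The genes most like Penk and most like Nrn1 were looked for by Pearson correlation over the 9 grouped arrays, after each set's mean was subtracted, among the 787 genes whose range in the first set was at least 1 on the log2 scale. The points share arrays and sets and fall into clusters by subset, so the correlations only describe likeness. Penk and Nrn1 correlated with each other at 0.948. Of the 787 genes, 37 were more like Penk than Nrn1 was, and 23 were more like Nrn1 than Penk was.

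The 6 genes most like Penk were Rgs9 (0.994), Ergic1 (0.990), Tnfrsf9 (0.984), Ccr8 (0.980), Hacd3 (0.980) and Kdm2b (0.979). Rgs9 encodes a regulator of G protein signalling known from retina and striatum, and Ccr8 encodes a chemokine receptor of Tregs. Rgs9 had log2 levels of 8.06 and 8.03 in FR3 Klrg1- cells, 6.94 and 6.63 in FR2 cells and 6.42 and 6.49 in FR1 cells. It thus repeated the order seen in Penk on a smaller scale, including the position of FR2 above FR1. In the second set, Rgs9 was at 7.99 in FR3 Klrg1+ cells, against 7.72 and 7.67 in FR3 Klrg1- cells.

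Of these 6 genes, Ccr8 came nearest to Penk in the size of its differences within a set. Its log2 level was 9.57 in FR3 Klrg1+ cells, against 8.52 and 8.56 in FR3 Klrg1- cells of the same set. In the first set it was 10.97 and 11.10 in FR3 Klrg1- cells, 8.12 and 8.64 in FR2 cells and 7.53 and 8.08 in FR1 cells. All 6 of these genes were higher on the FR3 Klrg1+ array than the mean of the FR3 Klrg1- arrays, by 0.12 for Kdm2b to 1.03 for Ccr8 on the log2 scale, beside 0.95 for Penk. The likeness measure used these same arrays, so this is no separate result.

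The 6 genes most like Nrn1 were Tnfrsf8 (0.987), Dusp4 (0.986), Cd83 (0.982), Rgs16 (0.979), Ccdc80 (0.975) and Itm2c (0.975). Tnfrsf8 encodes CD30, a TNF receptor of activated lymphocytes, Dusp4 a phosphatase of MAP kinases, and Rgs16 another regulator of G protein signalling. Tnfrsf8 had log2 levels of 8.19 and 8.06 in FR3 Klrg1- cells, 6.29 and 6.20 in FR2 cells and 5.85 and 6.05 in FR1 cells. In the second set it was at 7.09 in FR3 Klrg1+ cells, against 7.12 and 7.48 in FR3 Klrg1- cells, so it too was not higher on the Klrg1+ array.

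Dusp4, the next most like Nrn1, lay in the same narrow band in FR2 and FR1 cells, with log2 levels of 10.01 and 10.01 in FR2 cells and 9.98 and 10.24 in FR1 cells. In FR3 Klrg1- cells of the first set it was at 11.13 and 11.02. For FR3 Klrg1+ minus FR3 Klrg1-, the 6 genes differed by -0.27 (Cd83) to 0.13 (Rgs16) on the log2 scale, beside -0.23 for Nrn1. Dusp4 itself was at 7.61 in FR3 Klrg1+ cells, against 7.43 and 7.61 in FR3 Klrg1- cells of that set, well below its level in the first set.

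**Figure D3:**
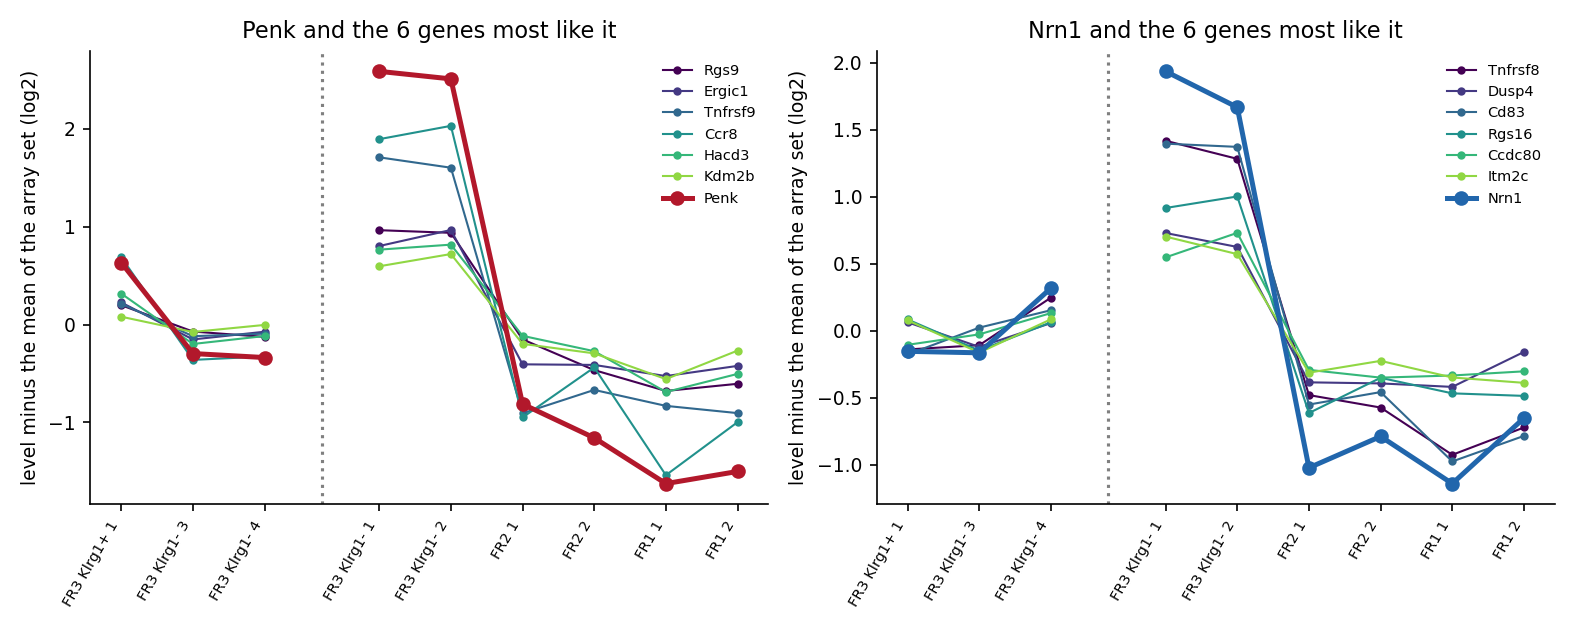
Log2 intensity after subtraction of each array set's mean (y axis) on the 9 grouped arrays (x axis) for Penk with the 6 genes most like it, and for Nrn1 with the 6 genes most like it. The FR3 Klrg1- arrays of the first set stand above FR2 and FR1 in both panels, and the FR3 Klrg1+ minus FR3 Klrg1- differences of 0.12 to 1.03 (genes like Penk) and -0.27 to 0.13 (genes like Nrn1) overlap at Kdm2b and Rgs16.

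Among the other genes of the opioid system, no further peptide precursor, receptor or enkephalin peptidase was called in any comparison. As the background for the counts below, limma called 2.14% of all 19938 genes higher and 2.82% lower in FR3 Klrg1+ against FR3 Klrg1-, and 2.81% higher and 1.94% lower in FR3 Klrg1- against FR2. It called 4.39% higher and 3.79% lower in FR3 Klrg1- against FR1, and 1.96% higher and 2.3% lower in FR2 against FR1. Of the 3 other opioid peptide precursors, Pdyn (dynorphins), Pomc (endorphin and melanocortins) and Pnoc (nociceptin), 0 were called by limma in any of the 4 comparisons, and 0 had an unadjusted p under 0.05. Their log2 levels over the 9 arrays ran from 5.44 to 5.94 for Pdyn, from 5.77 to 6.39 for Pomc and from 6.18 to 6.76 for Pnoc. Their median log2 difference for FR3 Klrg1- minus FR1 was 0.03, beside 0.02 over all genes. The log2 difference of Penk in that comparison was 4.11.

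Of 5 receptors for opioid peptides, 0 were called by limma in any comparison and 0 had an unadjusted p under 0.05. Oprd1, the delta receptor that enkephalins bind best, had log2 levels of 6.57 and 6.81 in FR3 Klrg1- cells, 6.60 and 6.63 in FR2 cells and 6.80 and 6.31 in FR1 cells. These overlapped across the 3 subsets, and the log2 difference for FR3 Klrg1- minus FR1 was 0.14 ± 0.16 (fit SE, limma, adjusted p = 0.759, n = 2 each). The mu receptor Oprm1 ran from 5.26 to 5.84 over the 9 arrays and the kappa receptor Oprk1 from 4.10 to 4.48, below percentile 25 of the probe sets on 9 of 9 arrays. The nociceptin receptor Oprl1 ran from 5.03 to 5.52. Ogfr, which encodes the opioid growth factor receptor that binds Met-enkephalin, ran from 7.90 to 9.44, and its log2 difference for FR3 Klrg1- minus FR1 was -0.28 ± 0.14 (limma, adjusted p = 0.289).

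Among 7 measured genes for the enzymes that cut and trim proenkephalin and their regulators, Cpd was called higher in FR2 as well as in FR3 Klrg1- cells. Cpd encodes carboxypeptidase D, which trims basic residues from peptides in the secretory pathway. Its log2 level was 7.99 and 8.22 in FR3 Klrg1- cells, 7.94 and 8.09 in FR2 cells and 6.13 and 6.47 in FR1 cells. FR2 and FR3 Klrg1- overlapped, and both lay above FR1. The log2 difference was 1.72 ± 0.16 for FR2 minus FR1 (fit SE, limma, adjusted p = 1.17e-05, n = 2 each) and 1.81 ± 0.16 for FR3 Klrg1- minus FR1 (limma, adjusted p = 2.11e-06). Penk, with 0.58 and 4.11 in the same comparisons, had most of its difference between FR2 and FR3 Klrg1-, where Cpd was not called.

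Ctsl, which encodes a cathepsin that also processes proenkephalin, fell by 0.91 ± 0.19 on the log2 scale in FR3 Klrg1- against FR1 (limma, adjusted p = 0.00651), a call lost without FR1 replicate 2 (adjusted p = 0.116) or FR3 Klrg1- replicate 1. Of the 7 genes, 1 was called higher (Cpd) and 1 lower (Ctsl) in FR3 Klrg1- against FR1 and likewise in FR2 against FR1, and 0 in FR3 Klrg1- against FR2, where 2 had an unadjusted p under 0.05. In FR2 against FR1, the call of Ctsl was lost without either FR1 array or FR2 replicate 1. In FR3 Klrg1+ against FR3 Klrg1-, the carboxypeptidase gene Cpe was lower, with a log2 level of 5.03, against 5.95 and 6.43. Pcsk1n, which encodes an inhibitor of a prohormone convertase, was higher, at 6.73 against 6.10 and 5.92. Both were called by limma with the array set in the fit and neither without it. On the first-set arrays Cpe ran from 4.97 to 5.42 and Pcsk1n from 6.53 to 6.64. Both Klrg1+ levels were near these, and FR3 Klrg1- replicates 3 and 4 stood apart. Cpe was below the array median on 8 of 9 arrays.

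Of 4 genes for peptidases that break enkephalins down, 0 were called by limma in any comparison, and 1 had an unadjusted p under 0.05 in FR3 Klrg1- against FR1 and 1 in FR3 Klrg1- against FR2. Mme, which encodes neprilysin or enkephalinase, had log2 levels of 3.95 to 4.43 over the 9 arrays, below percentile 25 on 9 of 9. Anpep, which encodes aminopeptidase N, ran from 4.79 to 5.26, with a log2 difference of 0.31 ± 0.13 for FR3 Klrg1- minus FR1 (limma, adjusted p = 0.212). Dpp3 ran from 7.32 to 8.97 and Ace from 5.68 to 6.07.

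Of 14 measured genes of signalling behind opioid receptors (inhibitory G proteins, arrestins, receptor kinases, potassium channels and RGS proteins), 2 were called higher and 2 lower in FR3 Klrg1- against FR1, beside a median log2 difference of -0.02. Those called higher were Rgs16 and Rgs1, and those called lower were Rgs14 and Rgs19. Without FR1 replicate 1, FR3 Klrg1- replicate 1 or FR3 Klrg1- replicate 2, Rgs16 alone was called higher, and without FR1 replicate 2, FR3 Klrg1- replicate 1 or FR3 Klrg1- replicate 2, neither Rgs14 nor Rgs19 was called. Rgs16, also among the genes most like Nrn1, had log2 levels of 10.55 and 10.64 in FR3 Klrg1- cells, 9.02 and 9.29 in FR2 cells and 9.17 and 9.15 in FR1 cells. Its log2 difference for FR3 Klrg1- minus FR1 was 1.44 ± 0.14 (fit SE, limma, adjusted p = 5.75e-06, n = 2 each), but without the array set in the fit the adjusted p was 0.126.

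**Figure D4:**
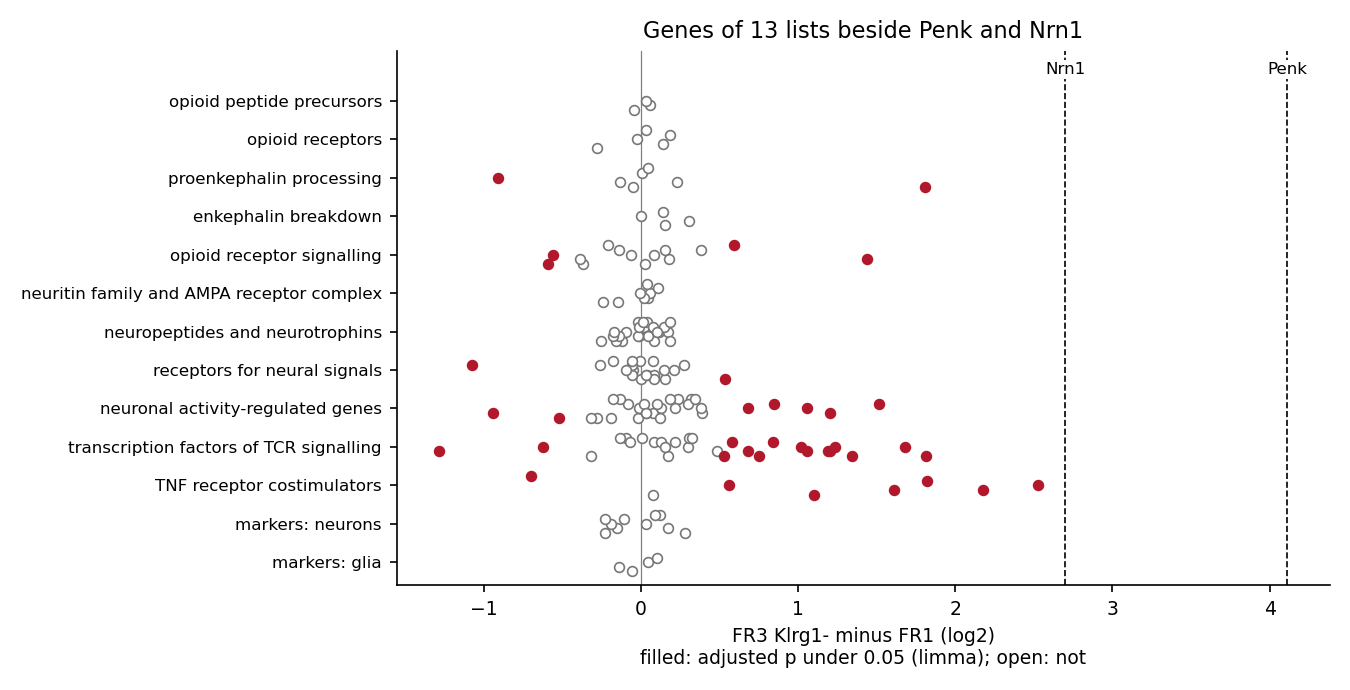
Log2 difference for FR3 Klrg1- minus FR1 (x axis) of every measured gene of 13 lists (rows: opioid, neural, TCR and costimulator genes and markers of neurons and glia); filled points are genes called by limma at an adjusted p under 0.05, and dashed lines mark Nrn1 (2.70) and Penk (4.11). The opioid precursors, opioid receptors, peptidases, neuritin family and neuropeptides have no filled point, and no gene of the 13 lists reaches the line of Nrn1 or of Penk.

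Around Nrn1, the neuritin family and the AMPA-type glutamate receptors, with which neuritin is linked at synapses, held no called gene. Of 8 measured genes, 0 were called by limma in any comparison and 0 had an unadjusted p under 0.05. Nrn1l, the only other neuritin gene, had log2 levels of 6.87 to 7.27 over the 9 arrays, and 3 of the AMPA receptor genes (Gria2, Gria3 and Gria4) were below percentile 25 on 9 of 9. The median log2 difference of the list for FR3 Klrg1- minus FR1 was 0.03, beside 0.02 over all genes and 2.70 for Nrn1.

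Other neuropeptides and neurotrophins were likewise without calls, while a few receptors for neural signals were called. Of 23 measured neuropeptides and neurotrophins, 0 were called by limma in any comparison, and an unadjusted p under 0.05 was seen for 3 in FR3 Klrg1+ against FR3 Klrg1-, 1 in FR3 Klrg1- against FR2, 0 in FR3 Klrg1- against FR1 and 0 in FR2 against FR1. Of 20 measured receptors for neural signals, 1 was called higher (Ntrk3) and 1 lower (Vipr1) in FR3 Klrg1- against FR1. Vipr1, which encodes a receptor of vasoactive intestinal peptide present on resting T cells, had log2 levels of 6.16 and 6.20 in FR3 Klrg1- cells, 6.79 and 6.85 in FR2 cells and 7.29 and 7.22 in FR1 cells. It ran opposite to Penk over the 3 subsets, with a log2 difference of -1.07 ± 0.12 for FR3 Klrg1- minus FR1 (fit SE, limma, adjusted p = 3.27e-05, n = 2 each), and the call held without the array set (adjusted p = 0.0129). The call of Ntrk3 was lost on leaving out any 1 of 4 arrays, both of FR1 and replicates 1 and 2 of FR3 Klrg1-. Vipr1 was also called lower in FR3 Klrg1- against FR2 (limma, adjusted p = 0.0069, and 0.133 without the array set). That call was lost without either FR2 array or without replicate 1 or 2 of FR3 Klrg1-.

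No marker of neurons or glia was called in any comparison. Of 10 neuronal markers, 0 were called by limma, with 1 unadjusted p under 0.05 in FR3 Klrg1+ against FR3 Klrg1- and 0 elsewhere, and the mean log2 level of the list was 4.89 to 5.13 on every grouped array. Of 4 measured glial markers, 0 were called by limma, with 1 unadjusted p under 0.05 in FR3 Klrg1- against FR2, 1 in FR2 against FR1 and 0 elsewhere. The glial list mean was 6.13 to 6.43, and Mbp and Sox10 in it were below the array median on 0 of 9 arrays.

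Markers of other blood cells were read in the same way, because some moved with Penk and Nrn1. The list mean on the log2 scale was 5.41 to 5.67 for 9 B cell markers, 5.32 to 5.92 for 9 macrophage and monocyte markers, 3.92 to 4.50 for 6 NK cell markers and 10.72 to 11.31 for 8 T cell markers. Of the 6 NK cell markers, 1 was called higher and 0 lower in FR3 Klrg1- against FR1 and likewise against FR2. It was Klrb1c, which encodes the receptor NK1.1, with log2 levels of 5.90 and 5.84 in FR3 Klrg1- cells, 4.61 and 4.96 in FR2 cells and 4.71 and 4.73 in FR1 cells. It separated FR3 Klrg1- from the other subsets of its set, with a difference of 1.15 ± 0.14 against FR1 (fit SE, limma, adjusted p = 4.72e-05, and 0.00529 without the array set) and of 1.09 against FR2 (adjusted p = 0.000267, and 0.0299 without the set). Unlike Nrn1, Klrb1c was below the array median on 9 of 9 arrays, and below percentile 25 on 4. Ncr1, Klra8, Klre1 and Klri2 were below percentile 25 on 9 of 9. The median log2 difference of the NK cell list for FR3 Klrg1- minus FR1 was 0.02.

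Of the 9 B cell markers, 1 was called higher and 1 lower in FR3 Klrg1- against FR1. Cd22 rose by 0.94 ± 0.18 on the log2 scale (limma, adjusted p = 0.0025, and 0.0382 without the array set), a call lost without FR1 replicate 1 (adjusted p = 0.058). Cd79a fell by 0.68 (limma, adjusted p = 0.0194, and 0.55 without the set), a call lost without FR1 replicate 2 or FR3 Klrg1- replicate 2. Its level was below the array median on 9 of 9 arrays and below percentile 25 on 6. In the same comparison the endothelial marker Pecam1, also present on leukocytes, and the CD8 T cell marker Cd8b1 fell as well. The part of these cells in the Penk and Nrn1 levels was not tested.

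Between FR3 Klrg1+ and FR3 Klrg1-, the macrophage list had a median log2 difference of -0.53, with 7 of 9 genes at an unadjusted p under 0.05. Of these, 1 was called higher (Fcgr1) and 1 lower (C1qc), and without the array set 0 were called. The call of Fcgr1 was lost without FR3 Klrg1- replicate 1, 2 or 4. The count of lower genes was 4 without FR3 Klrg1- replicate 3 and 0 without FR3 Klrg1- replicate 1 or 2 or either FR2 array. Flt3, a dendritic cell marker, was called higher there (limma, adjusted p = 0.00374, and 0.443 without the set). Klrb1c was called lower (limma, adjusted p = 0.0376, and 0.221 without the set). C1qc, Fcgr1, Flt3 and Klrb1c were each below the array median on 9 of 9 arrays. The mean of the macrophage list was 5.443 on the FR3 Klrg1+ array and 5.715 to 5.919 in FR3 Klrg1- replicates 3 and 4. Over the first-set arrays it ran from 5.324 to 5.502. The Klrg1+ array thus lay in the first-set range, and replicates 3 and 4 lay above it. The part of other blood cells in the higher Penk level of the FR3 Klrg1+ array was not tested.

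Nrn1 was first known as a gene induced by neuronal activity, and 30 other genes of that kind were measured. In FR3 Klrg1- against FR1, 5 were called higher and 2 lower, and without FR1 replicate 1 or FR3 Klrg1- replicate 2 the count of higher genes was 3. Without the array set in the fit, 1 gene was called higher (Npas4) and 0 lower. The list's median log2 difference was 0.11, beside 0.02 over all genes. Npas4, a transcription factor that neurons switch on with calcium influx, led the list. Its log2 level was 6.82 and 7.16 in FR3 Klrg1- cells, 5.88 and 5.79 in FR2 cells and 5.60 and 5.35 in FR1 cells.

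Like Nrn1, Npas4 stood clearly higher in FR3 Klrg1- cells than in the other subsets of its set. The log2 difference for FR3 Klrg1- minus FR1 was 1.52 ± 0.15 (fit SE, limma, adjusted p = 8.28e-06, n = 2 each), and it was called without the array set too (adjusted p = 0.00663). Npas4 fell in FR3 Klrg1+ against FR3 Klrg1- cells: on the Klrg1+ array its log2 level was 5.40, against 6.84 and 6.61 in FR3 Klrg1- cells of that set (difference -1.32 ± 0.18, limma, adjusted p = 0.00102). That call was lost without the array set (adjusted p = 0.0828).

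The transcription factors that act downstream of the TCR included many called genes. This list, like the others, was chosen with earlier results of these data known, so its counts beside the share of all genes are only a description. Of 29 measured transcription factors of TCR signalling, 13 were called higher and 2 lower in FR3 Klrg1- against FR1, against 4.39% higher and 3.79% lower of all genes, and without the array set in the fit 3 and 1. In FR2 against FR1 the counts were 7 and 1, and without FR1 replicate 1, FR1 replicate 2 or FR2 replicate 1, the higher count was 4, and without the array set both counts were 0. The median log2 difference of the list for FR3 Klrg1- minus FR1 was 0.33. Batf, a partner of AP-1 in activated T cells, rose in FR3 Klrg1- cells against both other Klrg1- subsets. Its log2 level was 9.73 and 9.72 in FR3 Klrg1- cells, 8.67 and 8.83 in FR2 cells and 8.54 and 8.44 in FR1 cells, with a difference of 0.97 ± 0.13 for FR3 Klrg1- minus FR2 (fit SE, limma, adjusted p = 0.000372, n = 2 each) that was also called without the array set (adjusted p = 0.0322). For FR3 Klrg1- minus FR1 it was 1.24 ± 0.13 (limma, adjusted p = 1.31e-05). In the second set Batf was at 10.48 in FR3 Klrg1+ cells, against 10.07 and 9.91 in FR3 Klrg1- cells.

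Of 8 TNF receptor and CD28 family costimulators, 6 were called higher and 1 lower in FR3 Klrg1- against FR1, with a median log2 difference of 1.36. In FR3 Klrg1- against FR2, 5 were called higher and 0 lower, and in FR3 Klrg1+ against FR3 Klrg1- 1 higher and 1 lower. The gene called lower was Tnfrsf25 in FR3 Klrg1- against FR1, lost without FR3 Klrg1- replicate 2, and Cd28 in FR3 Klrg1+ against FR3 Klrg1-, lost on leaving out any 1 of 5 arrays (FR3 Klrg1- replicates 1 to 3 and both of FR2). Tnfrsf9 and Tnfrsf8, among the genes most like Penk and Nrn1, belong to this list. Their log2 differences for FR3 Klrg1- minus FR2 were 2.44 and 1.88, smaller than those of Penk (3.53) and Nrn1 (2.71) on the same arrays. Without the array set, 1 of the 8 genes was called in FR3 Klrg1- against FR1, namely Tnfrsf8 (limma, adjusted p = 0.0226), and 0 in FR3 Klrg1- against FR2 and in FR3 Klrg1+ against FR3 Klrg1-.

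**Figure D5:**
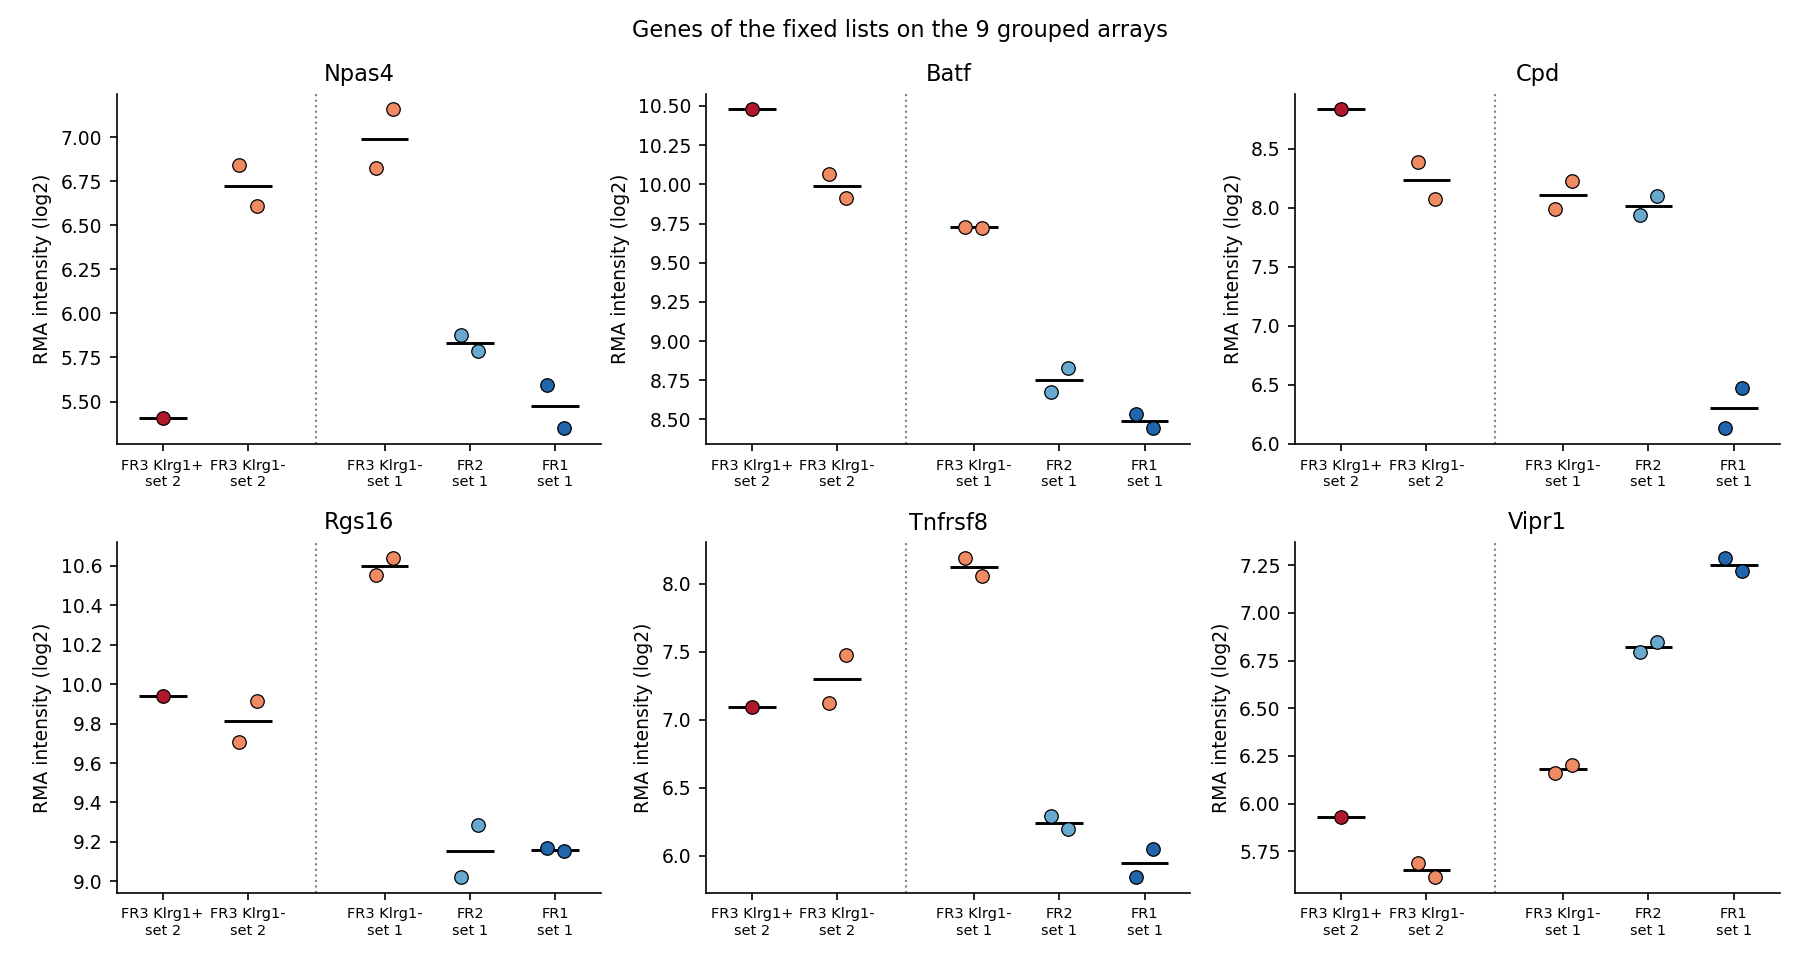
Log2 intensity (y axis) of 6 genes of the lists on each grouped array (x axis, by subset and array set); points are arrays and short bars are group means. Cpd is already high in FR2 (7.94 and 8.09), Batf, Npas4, Rgs16 and Tnfrsf8 stand higher in FR3 Klrg1- than in FR2 and FR1, and Vipr1 runs the other way.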

How the data were processed

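RNA of sorted spleen Tregs, 20 to 50 ng per sample per the labels, was amplified and measured on Affymetrix Mouse Gene ST 1.0 arrays. The deposited values are log2 intensities that the authors made with RMA, per the submitters' processing notes. Its version, and whether all arrays were normalized together, are not given in the sources used here. Of 35556 probe sets, 21789 had 1 gene symbol, 1621 several and 12146 none. The brightest probe set per gene left 19938 genes, with no intensity filter.

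Differences come from 1 fit over the 9 grouped arrays with limma 3.58.1 in R 4.3.3, with array set as a block and Benjamini-Hochberg adjustment over all genes at 0.05, tested on simulated data. The lone FR3 Klrg1+ array is assumed to vary like the others. The fit with the block equals the difference within a set. The members and the gene lists were chosen with earlier results of these data known. Named genes are the members, the sort markers, all opioid precursors, receptors and peptidases, up to 6 called genes per other list with the largest differences, and the 6 genes most like each member; of the called list genes, those that bear on Penk or Nrn1 are printed. Alternatives were other fits, filters and normalization, and leaving out each array. The number of arrays limits precision.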

Additional observations from a re-analysis of the deposited data

Results flagged for a closer look

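Among the 68 genes looked at in the 4 FR3 Klrg1- arrays, 2 had an array far from the other 3. Chance gives such a gap in about 1 of 20 groups of like arrays, while these 4 come from 2 array sets. Ctsl, the cathepsin gene of proenkephalin processing, was at a log2 level of 6.75 in FR3 Klrg1- replicate 4 and at 7.30 to 7.40 in the others. Jchain, a plasma cell marker, was at a log2 level of 4.12 in FR3 Klrg1- replicate 2 and at 3.73 to 3.77 in the others. No FR3 Klrg1- array stood apart in this way for Penk or Nrn1. A difference between the sets widens the range and can hide such a gap, so this does not show that the arrays agree.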

How the results depend on the processing

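The signs of the Penk and Nrn1 differences in FR3 Klrg1- against FR1 and FR2 held under each alternative run. Of 44 values of the 2 genes, 41 moved by less than the spread between replicates. By construction, leaving out 1 array of a pair moves a difference by less than that spread. The across-set run cannot move FR2 against FR1 either, since both groups are in the first set only. The count is therefore no measure of stability, and 3 values moved further. Across sets, Penk in FR3 Klrg1+ minus FR3 Klrg1- was 1.01 and Nrn1 in FR3 Klrg1- minus FR2 was 2.45, and after quantile normalization that Penk difference was 1.14. Leaving out each array in turn, Penk gave 4.05 to 4.17 for FR3 Klrg1- minus FR1, 3.36 to 3.71 for FR3 Klrg1- minus FR2, 0.41 to 0.75 for FR2 minus FR1 and 0.93 to 0.97 for FR3 Klrg1+ minus FR3 Klrg1-. Nrn1 gave 2.46 to 2.94, 2.58 to 2.84, -0.25 to 0.23 and -0.47 to 0.01 in the same order. Without the array set, limma called 52 genes in FR2 against FR1 instead of 850, 439 in FR3 Klrg1- against FR1 instead of 1632, 55 in FR3 Klrg1- against FR2 instead of 948 and 22 in FR3 Klrg1+ against FR3 Klrg1- instead of 989. That fit takes the FR3 Klrg1- mean over the arrays of both sets. Its FR3 Klrg1- differences and its spread therefore also carry the difference between the sets, which was -4.23 for Gadd45b. What separates the sets was not tested. Of 85 calls of named list genes, 15 held without the set, 61 did not pass and 9 changed sign. Those that changed sign had log2 differences of -1.27 (Gadd45b), -0.53 (Nr4a3) and -0.34 (Cd4) in FR3 Klrg1- minus FR1, of -0.14 (Nr4a2), -0.35 (Plk2), -1.31 (Gadd45b) and -0.056 (Tnfrsf1b) in FR3 Klrg1- minus FR2, and of -0.54 (Dusp5) and -0.51 (Dusp1) in FR3 Klrg1+ minus FR3 Klrg1-. In FR2 against FR1, a filter at percentile 40 gave 1401 calls and the first set alone, an alternative chosen after seeing the data, 1331. With the replicate number as a block, 1669 genes were called in FR2 against FR1 and 1586 in FR3 Klrg1- against FR2. The numbers are not shown to pair the arrays, since same-numbered deviations correlated at 0.0229 (FR3 Klrg1- and FR2), 0.144 (FR3 Klrg1- and FR1) and 0.181 (FR2 and FR1). No paired analysis was possible for FR3 Klrg1+ because it shares fewer than 2 numbers with FR3 Klrg1-. Leaving out each array, the calls ran from 253 (without FR2 replicate 1) to 1331 in FR2 against FR1, from 910 (without FR3 Klrg1- replicate 2) to 2063 in FR3 Klrg1- against FR1, from 302 (without FR2 replicate 1) to 1318 in FR3 Klrg1- against FR2, and from 721 (without FR3 Klrg1- replicate 1 or 2) to 1553 (without FR3 Klrg1- replicate 4) in FR3 Klrg1+ against FR3 Klrg1-. The mean of all probe sets was not run, since each member has 1.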

Other observations

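The array titled FR3 with the marker text of FR1 was in no comparison. It correlated at 0.973 to 0.975 with the arrays of the second set and at 0.904 to 0.917 with those of the first. Its log2 level was 12.46 for Penk and 9.35 for Nrn1. Klrg1 was at 12.41, Cd69 at 9.86, Foxp3 at 9.85 and Npas4 at 6.04 on the same scale. Of the genes most like Penk, Rgs9 was at 7.98, Ccr8 at 9.42 and Tnfrsf9 at 10.24, and of those most like Nrn1, Tnfrsf8 was at 6.96, Dusp4 at 7.09 and Cd83 at 9.08. Eif2s3y was at 8.50 and Xist at 10.71. For Klrg1, the level of 12.41 goes against the Klrg1- of the marker text. The FR3 Klrg1+ array was at 12.33, and no grouped array sorted as Klrg1- was above 7.47. For Penk, the FR3 Klrg1+ array was at 12.44. Which subset the ungrouped array holds was not tested.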
